A study of Mus musculus with 22 samples.

Results

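The chemokines and their receptors were followed in tumours of the colon from 22 male FVB/N mice given azoxymethane, a carcinogen used to start such tumours in rodents. The formerly obese group (5 mice) had been switched from high-fat to low-fat feeding, and the obese sulindac group (6 mice) ate the high-fat diet and received sulindac, which inhibits cyclooxygenases and so the making of prostaglandins. The obese group (5 mice) ate the same high-fat diet, in which fat supplied 60% of the energy, without sulindac, and the control group (6 mice) was kept on low-fat feed (10% of energy as fat), also without sulindac. All 4 groups shared azoxymethane, sex and strain, and every sample was a tumour. Each sample is titled by the number of its mouse, apart from the obese sulindac tumour of Mouse_X, and replicates are read as separate animals. For Mouse_X the labels do not show this. The sources used here give neither the ages of the mice, nor the time of the switch, nor the doses and times of azoxymethane and sulindac. Members were taken by gene symbol from the array annotation, as all Ccl, Cxcl, Cx3c, Xcl1, Xcr1, Ccr and Cxcr genes with a number in their name, apart from Ccl2, Ccr2, Cxcl9, Ccl21a, Ccl21b and Ccl21c. This gave 50 genes, 33 ligands and 17 receptors, of 19505 distinct symbols on the array, and each member had 1 probe set. Cxcl11, counted here as a ligand, is classed in the gene annotation as a transcribed pseudogene. Whether its transcript encodes a chemokine in these mice was not tested.

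Chemokines are small secreted proteins, a few of them anchored in the membrane, that guide leukocytes along gradients by binding receptors coupled to inhibitory G proteins on the moving cell. Those of the CXC class with an ELR motif draw neutrophils through Cxcr2, those induced by interferon draw T and NK cells through Cxcr3, and many CC chemokines draw monocytes, eosinophils, dendritic cells or lymphocytes. In the colon the epithelium also makes constitutive chemokines, such as Ccl25 and Ccl28, that place lymphocytes and plasma cells in the mucosa.

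Ligand genes of chromosome 5 are shown first, because Cxcl2 varied with Cxcl1 and with Cxcl3 from tumour to tumour in the data described further on. Cxcl10 varied with Cxcl11. The sequences are the 250 bases before the annotated start, taken from RefSeq on GRCm38.p6 and written 5′ to 3′ along the gene's strand, with capitals for motif matches. The windows are chr5:90890995-90891244 for Cxcl1, chr5:90903649-90903898 for Cxcl2 and chr5:90785851-90786100 for Cxcl3, all on the plus strand, and chr5:92348890-92349139 on the minus strand for Cxcl10.
Cxcl1: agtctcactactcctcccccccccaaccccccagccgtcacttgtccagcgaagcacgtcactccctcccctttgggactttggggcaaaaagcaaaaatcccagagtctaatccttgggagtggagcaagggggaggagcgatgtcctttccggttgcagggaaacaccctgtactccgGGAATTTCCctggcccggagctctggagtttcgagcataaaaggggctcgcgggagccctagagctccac
Cxcl2: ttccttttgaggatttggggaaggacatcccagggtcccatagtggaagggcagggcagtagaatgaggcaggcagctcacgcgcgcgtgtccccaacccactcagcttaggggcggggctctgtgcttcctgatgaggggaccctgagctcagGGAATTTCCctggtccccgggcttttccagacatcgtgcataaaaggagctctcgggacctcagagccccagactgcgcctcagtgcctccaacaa
Cxcl3: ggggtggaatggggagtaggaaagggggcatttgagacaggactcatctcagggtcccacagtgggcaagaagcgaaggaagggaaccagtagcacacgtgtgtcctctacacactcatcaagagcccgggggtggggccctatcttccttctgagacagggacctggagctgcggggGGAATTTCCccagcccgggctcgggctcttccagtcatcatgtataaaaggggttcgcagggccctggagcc
Cxcl10: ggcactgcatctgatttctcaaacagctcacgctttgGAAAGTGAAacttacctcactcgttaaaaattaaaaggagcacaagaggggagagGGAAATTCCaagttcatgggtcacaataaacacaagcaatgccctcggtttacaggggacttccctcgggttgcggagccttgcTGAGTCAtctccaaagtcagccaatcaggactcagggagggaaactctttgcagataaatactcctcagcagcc
In the first 3 windows the capitals mark GGAATTTCC, a form of the kappaB motif bound by NF-kB, whose first base lies 70 bases before the start of Cxcl1, 96 before that of Cxcl2 and 72 before that of Cxcl3. In the Cxcl10 window they mark, in order, an interferon response core (GAAANNGAA), the same kappaB motif read on the opposite strand, and an AP-1 motif (TGAGTCA).

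RefSeq windows were at hand for 37 of the 50 members and for 27025 genes in all, and both strands were searched. The kappaB letters were found in 5 of the 37 (13.5%), which were Cxcl1, Cxcl2, Cxcl3, Cxcl10 and the receptor gene Ccr3, and in 0.344% of all genes. The other 3 motifs were nearer to their share among all genes: the interferon response core stood in 16.2% of member windows and 8.18% of all, the AP-1 motif in 10.8% and 5.16%, and TTCNNNGAA, the GAS motif of STAT proteins, in 10.8% and 8.13%. Cxcl5, Cxcl3, Cxcl15, Cxcl1 and Cxcl2 follow each other on chromosome 5 in that order among the members, so their windows are not independent examples. Cxcl5, which varied with Cxcl1, and Cxcl11, which varied with Cxcl10, are not among the 5 with kappaB letters. A gene without a window could not be among them. Ccl3 had a window with an interferon response core and no kappaB letters. Whether the motifs go with shared variation was not tested. A match describes letters in a window and says nothing about binding in these tumours.

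Each tumour was measured on 1 Clariom S array, an expression array whose short probes are summarised per probe set, and the deposited levels are read as log2 values. Array medians lay between 6.67 and 6.83 and correlations between arrays between 0.947 and 0.988, and the number of arrays per group limits the precision of every difference. All 8 colon epithelium markers examined had mean levels between 9.52 and 17.62, while the 4 eosinophil markers lay between 4.16 and 4.56, at the lower end of the scale. Probes differ in how strongly they bind, so the level of a gene is compared between tumours and not with the level of another gene. In whole tumours fewer cells of a type and less RNA per cell cannot be told apart.

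Member levels covered most of the scale of the arrays, as the plot of levels by role shows. Mean levels over the 22 tumours were 13.65 ± 0.58 (range 12.40 to 14.80) for Cxcl16, a membrane-bound ligand of Cxcr6, 12.61 ± 0.65 (range 11.37 to 13.66) for the epithelial ligand Cxcl14, and 11.52 ± 1.53 (range 8.64 to 14.70) for Cxcl13, which attracts B cells (SD over 22 tumours). Cxcl2 averaged 11.38 ± 2.02 (range 6.83 to 15.32) and Ccl3, a ligand of Ccr1, 11.25 ± 2.0 (range 7.51 to 15.86). At the lower end, Ccr1l1, a relative of Ccr1, had 4.40 ± 0.30 (range 3.87 to 5.09), Ccr10 4.43 ± 0.29 (range 3.92 to 4.91), Ccl19 4.58 ± 0.22 (range 4.19 to 4.97), Cxcr1 4.63 ± 0.29 (range 4.28 to 5.42) and Ccl26 4.64 ± 0.36 (range 4.0 to 5.29). The means of these 5 genes lie below 4.89, under which 30% of all probe sets fall, and no detection call was given, so it is not known whether they were measured above background.

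**Figure D1:**
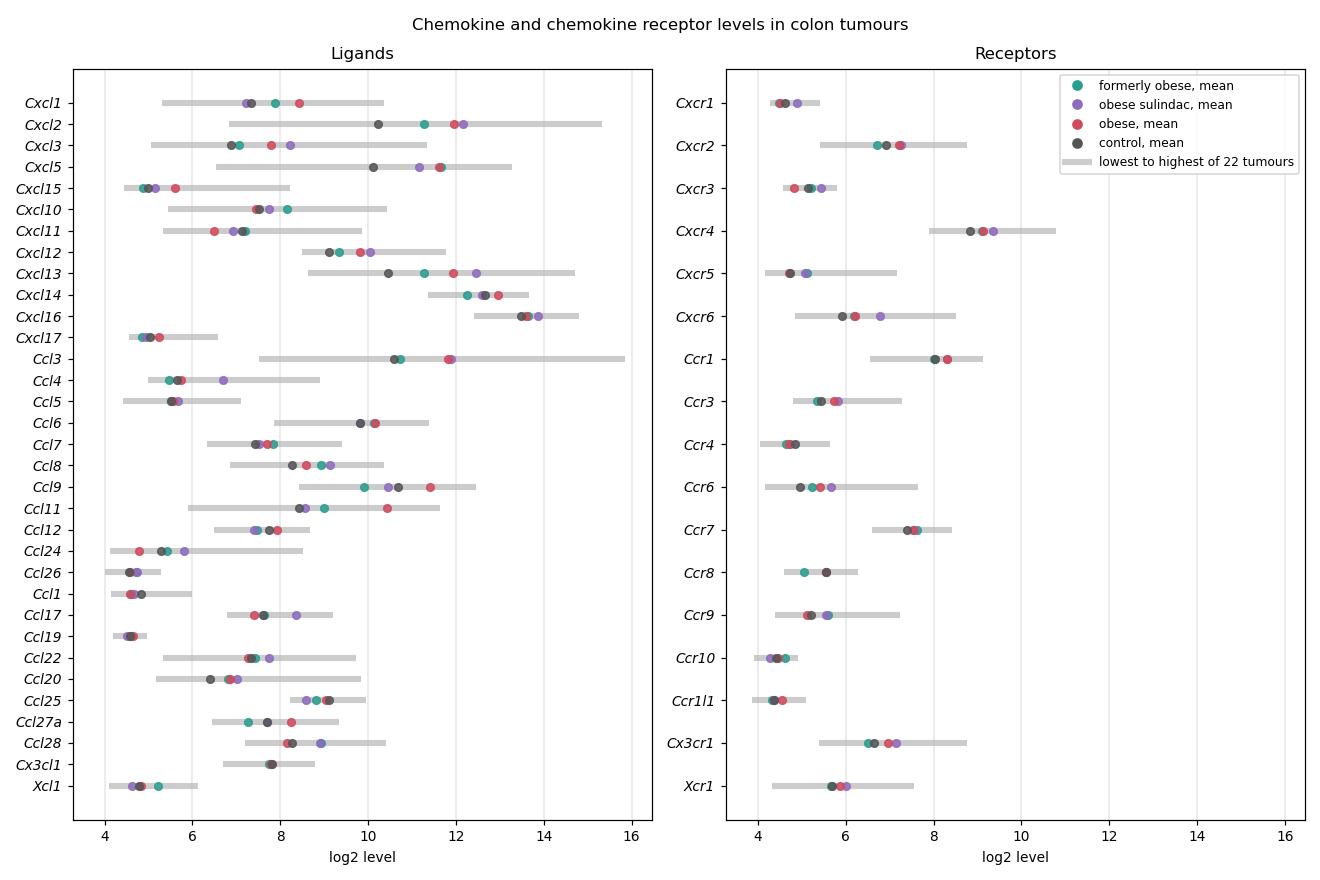
Log2 level of the 33 ligands (left) and 17 receptors (right), in the order of their roles. Dots are the means of the formerly obese, obese sulindac, obese and control groups and grey bars run from the lowest to the highest of the 22 tumours. The tumours of Ccl3 span 7.51 to 15.86.

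Tumours of the same regimen differed widely in these genes. The SD within groups had a median of 0.725 log2 units over the 50 members, against 0.348 over all probe sets. Of the members, 24 lay above 0.738, the 90th percentile of all probe sets, and 43 had a larger SD than the median probe set in the same bin, when probe sets were divided into 10 bins of mean level. Ccl3 had an SD within groups of 2.05, Cxcl2 of 2.0, Cxcl5 of 1.75, Ccl20 of 1.56 and Cxcl3 of 1.48 log2 units, and all 5 are ligands that inflamed epithelium, macrophages or neutrophils can make. The smallest SD among members was 0.23, for Ccl19.

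**Figure D2:**
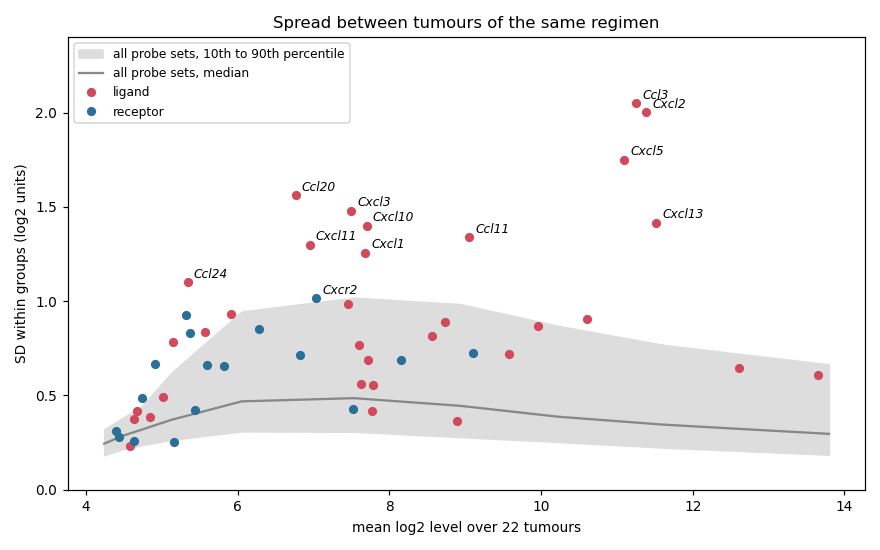
SD within groups against the mean log2 level of each of the 50 members (dots), with the median of all probe sets in 10 equal bins of level (line) and their 10th to 90th percentiles (grey). Ccl3, Cxcl2, Cxcl5, Ccl20 and Cxcl3 stand highest, between 1.48 and 2.05 log2 units, and 43 of 50 dots lie above the median of their bin.

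A few tumours held many of the extremes. Formerly obese Mouse_152 had the highest value of 9 members, and the obese sulindac tumours of Mouse_125, Mouse_114 and Mouse_124 had those of 8, 5 and 5 members. The lowest value of 9 members was in control Mouse_26, of 8 in control Mouse_20 and of 6 in obese Mouse_96. Deviations were taken from each member's own median over all tumours. The median deviation was 0.29 log2 units in formerly obese Mouse_152, 0.40 in obese sulindac Mouse_125 and -0.64 in control Mouse_26. In control Mouse_30 it was 0.44, and 37 of the 50 members lay above their own mean there.

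In a list of chosen pairs, some of this spread was shared between ligands of the same receptor, between ligands and receptors, and with markers of the cells that carry them. Of 40 listed pairs of genes, 34 could be formed, and in 22 the Pearson correlation over the 22 tumours had an adjusted permutation p under 0.05 (Benjamini-Hochberg over the 34). By Spearman's rho 19 passed, with group means removed 17, without the 2 tumours farthest from the median of the first gene 15, and by all 4 measures 14. Among the ligand-receptor pairs, 11 of 22 passed by Pearson's r. The share of other pairs of genes past the same threshold was not measured, so these counts have no background beside them. The smallest p that the permutations can give is 1e-05. Both genes of a pair come from the same array and the same piece of tissue, and the part of cell content in these relations was not tested.

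Several of the listed pairs joined neutrophil attractants. Cxcl2 and Cxcl3 had r = 0.90 and rho = 0.95 (adjusted permutation p = 6.8e-05 for r and 8.5e-05 for rho), with r = 0.90 after removal of group means and 0.87 without control Mouse_20 and obese sulindac Mouse_114. For both genes the highest tumours were obese sulindac Mouse_114 and Mouse_129 and the lowest was control Mouse_20. Ccl3, a ligand of Ccr1, had the same highest and lowest tumours, at 15.86, 14.74 and 7.51. No pair of Ccl3 with Cxcl2 or Cxcl3 was listed, so whether this variation is particular to ligands of Cxcr2 was not tested. For Cxcl1 and Cxcl2 the values were r = 0.67 and rho = 0.69 (adjusted permutation p = 0.00218 for r and 0.0017 for rho, r = 0.82 without obese Mouse_96 and obese sulindac Mouse_131), and for Cxcl1 and Cxcl5 r = 0.71 and rho = 0.73 (adjusted permutation p = 0.000816 for r and 0.000982 for rho, r = 0.72 without the same 2 tumours). The receptor gene Cxcr2 varied with its ligands, with r = 0.66 for Cxcl1, 0.77 for Cxcl2, 0.68 for Cxcl3 and 0.66 for Cxcl5, and rho between 0.59 and 0.76 (adjusted permutation p for r from 6.8e-05 to 0.00228, r from 0.55 to 0.68 without 2 tumours). Cxcr2 itself varied with Csf3r, the receptor for the granulocyte growth factor and a neutrophil marker, at r = 0.88 and rho = 0.91 (adjusted permutation p = 6.8e-05 for r and 8.5e-05 for rho, r = 0.84 without control Mouse_20 and obese sulindac Mouse_114). Il1b, the gene of a cytokine that induces these ligands, and Cxcl2 had r = 0.82 and rho = 0.84 (adjusted permutation p = 9.71e-05 for r and 8.5e-05 for rho, r = 0.74 without obese sulindac Mouse_114 and Mouse_X).

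Other pairs of ligands behaved likewise. Cxcl10 and Cxcl11, both induced by interferon, had r = 0.85 and rho = 0.83 (adjusted permutation p = 6.8e-05 for r and 8.5e-05 for rho, r = 0.77 without obese sulindac Mouse_124 and obese Mouse_109). Ccl3 and Ccl4, close relatives that macrophages release, had r = 0.83 and rho = 0.76 (adjusted permutation p = 6.8e-05 for r and 0.000382 for rho, r = 0.68 without obese sulindac Mouse_114 and Mouse_129). Ccl3 and its receptor gene Ccr1 had r = 0.65 and rho = 0.64 (adjusted permutation p = 0.00233 for r and 0.00425 for rho, r = 0.64 without the same 2 tumours). Ccl17 and Ccl22, the ligands of Ccr4, had r = 0.59 and rho = 0.32 (adjusted permutation p = 0.0079 for r and 0.194 for rho). With group means removed r was 0.65 (adjusted permutation p = 0.0146). Without obese sulindac Mouse_124 and obese Mouse_96 it was 0.28 (adjusted permutation p = 0.297), so r over all tumours leans on those tumours. They are the farthest from the Ccl17 median, and leaving them out also narrows its range.

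Among lymphocyte-directed pairs, Cxcl16 and Cxcr6 gave r = 0.71 and rho = 0.81 (adjusted permutation p = 0.000793 for r and 0.000204 for rho, r = 0.72 without control Mouse_26 and obese sulindac Mouse_124). Cxcl13 and Cxcr5, which together place B cells in follicles, gave r = 0.72 and rho = 0.63 (adjusted permutation p = 0.000467 for r and 0.00425 for rho), but r = 0.48 without formerly obese Mouse_152 and obese sulindac Mouse_125 (adjusted permutation p = 0.0623). In formerly obese Mouse_152 and obese sulindac Mouse_125 Cxcl13 stood at 14.70 and 14.69, and the mean of 8 B cell markers, at 8.05 and 7.07, was the highest of each group; the part of B cell content in the relation was not tested. Cxcl12 and Cxcr4 had r = 0.62 and rho = 0.43 (adjusted permutation p = 0.00538 for r and 0.0744 for rho, r = 0.44 without obese sulindac Mouse_125 and obese Mouse_113, adjusted permutation p = 0.0852), and Ccl20 and Ccr6 had r = 0.53 and rho = 0.52 (adjusted permutation p = 0.0202 for r and 0.0274 for rho, r = 0.49 without formerly obese Mouse_152 and control Mouse_27, adjusted permutation p = 0.0611). Without those tumours none of these 3 pairs passed, although r for Ccl20 and Ccr6 was nearly as large. With group means removed Cxcl13 and Cxcr5 passed (r = 0.79, adjusted permutation p = 0.0017). Cxcl12 and Cxcr4 (r = 0.60, adjusted permutation p = 0.0504) and Ccl20 and Ccr6 (r = 0.51, adjusted permutation p = 0.0607) did not. The fractalkine receptor gene Cx3cr1, carried by tissue macrophages, varied with the macrophage marker Csf1r at r = 0.84 and rho = 0.77 (adjusted permutation p = 9.71e-05 for r and 0.000227 for rho, r = 0.77 without obese sulindac Mouse_125 and obese Mouse_109).

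Some known pairs did not pass over all tumours. Cxcl10 and Cxcr3 had r = 0.22 and rho = 0.32 (adjusted permutation p = 0.404 for r and 0.196 for rho), with r = 0.43 without obese sulindac Mouse_124 and obese Mouse_109 (adjusted permutation p = 0.0956), and Cxcr3 and the T cell gene Cd3e had r = 0.17 and rho = 0.16 (adjusted permutation p = 0.539 for r and 0.552 for rho, r = 0.21 without obese sulindac Mouse_129 and obese Mouse_113). Ccl22 and Ccr4 had r = 0.32 and rho = 0.44 (adjusted permutation p = 0.2 for r and 0.0718 for rho), but r = 0.61 without obese sulindac Mouse_124 and control Mouse_26 (adjusted permutation p = 0.0121). Values near 0 came from Ccl19 and Ccr7 (r = 0.00 and rho = 0.01), Ccl28 and Ccr10 (r = 0.03 and rho = 0.02) and Xcl1 and Xcr1 (r = 0.01 and rho = -0.06), in which Ccl19, Ccr10 and Xcl1 had low mean levels, and r lay between -0.04 and 0.12 without 2 tumours. Ccl25, made by intestinal epithelium, and Ccr9, its receptor gene on gut-homing lymphocytes, gave the 1 negative relation that passed, at r = -0.52 and rho = -0.53 (adjusted permutation p = 0.0202 for r and 0.0241 for rho). Without control Mouse_27 and formerly obese Mouse_152 it was r = -0.39 (adjusted permutation p = 0.14), which did not pass. With group means removed it was r = -0.49 (adjusted permutation p = 0.0607), which did not pass either.

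**Figure D3:**
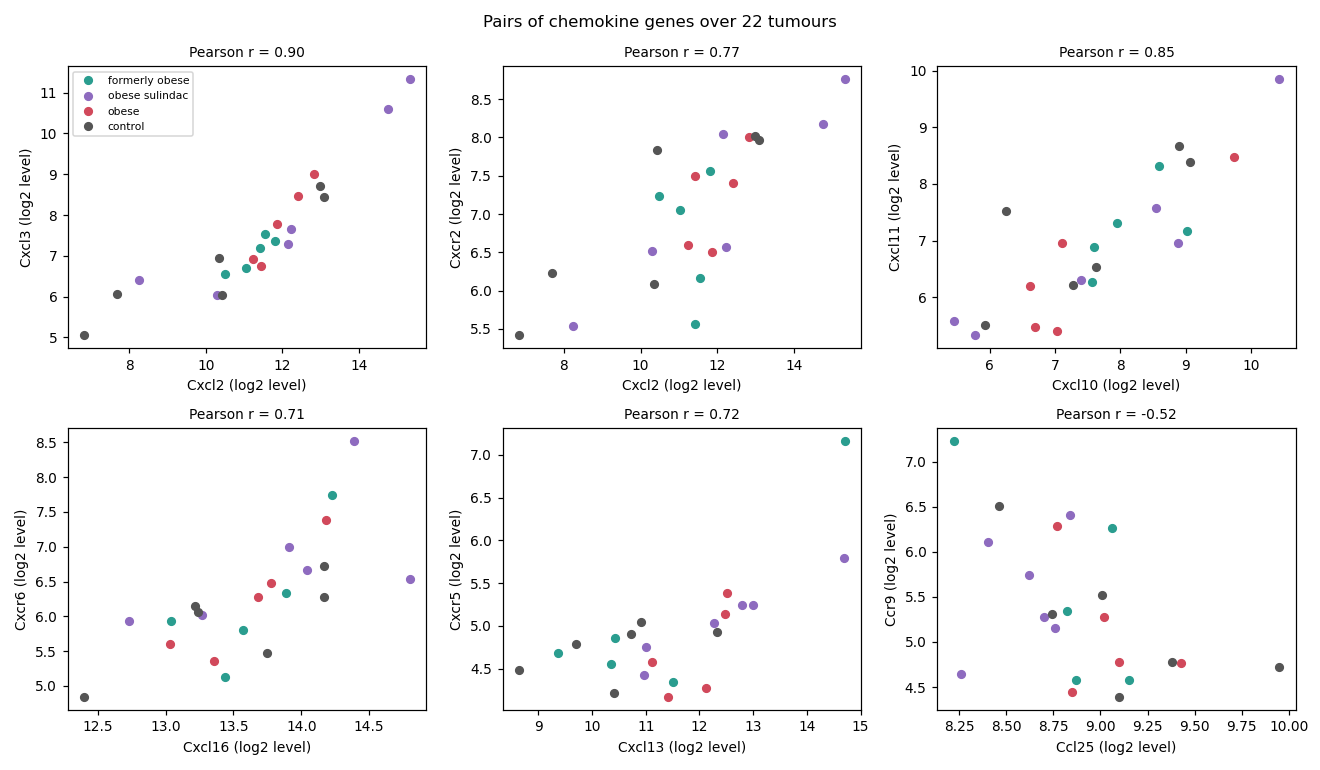
Log2 levels of 6 pairs of genes in the 22 tumours, coloured by group, each with its Pearson r over all tumours. Cxcl2 and Cxcl3 (r = 0.90) and Cxcl10 and Cxcl11 (r = 0.85) lie near a line, Cxcl13 and Cxcr5 (r = 0.72, and 0.48 without 2 tumours) include formerly obese Mouse_152 at the upper right, and Ccl25 and Ccr9 slope downwards (r = -0.52).

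The first comparison asks how tumours of obese mice differed from those of control mice. Most members lay higher in obese tumours, Ccl11 and Cxcl13 among them, but the tumours overlapped, single mice moved most differences, and limma called 0 members changed at an adjusted p under 0.05 (smallest adjusted p = 0.9998). Over all 22203 probe sets 0 were called as well, with 894 at an unadjusted p under 0.05. In obese tumours 36 of the 50 members lay higher and 14 lower, with a median difference of 0.19 log2 units, while 49.1% of all probe sets lay higher and their median difference was 0.00. With single mice left out the count of members higher ran from 30 to 42, and in 45 of 50 members some mouse moved the difference by over 1.5 times or turned its sign (22 turned). At an unadjusted p under 0.05, 1 member was higher and 0 were lower, against 1.82% higher and 2.21% lower among all probe sets, so the count of members is near the background.

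Ccl11, or eotaxin, which draws eosinophils through Ccr3, was the member higher at that level. Its values were 9.49, 10.35, 10.65, 10.75 and 10.92 in obese tumours, against 5.89 to 11.0 around a median of 8.16 in control tumours. Obese tumours sat in a narrow band, with control Mouse_32 above all of them and every other control tumour below all of them. Obese tumours averaged 10.43 ± 0.57 and control tumours 8.42 ± 1.72 (SD, n = 5 and 6), and the means differed by 2.01 ± 0.75 log2 units (SE, as for all differences given with ±, 95% interval 0.46 to 3.57, limma p = 0.0136, adjusted p = 0.9998, exact permutation p = 0.0433). Leaving out single mice moved it between 1.51 and 2.53. The 4 eosinophil markers stayed at the lower end of the scale in both groups, with list means from 4.29 to 4.49 in obese and 4.24 to 4.59 in control tumours. Ccr3 differed by 0.29 ± 0.38, and the other eotaxins, Ccl24 and Ccl26, by -0.49 ± 0.62 and 0.02 ± 0.22 log2 units.

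Cxcl13 had values of 11.11, 11.41, 12.12, 12.48 and 12.52 in obese tumours, against 8.64 to 12.33 around a median of 10.56 in control tumours. All but control Mouse_30 lay below every obese tumour. Its difference was 1.48 ± 0.79 log2 units (95% interval -0.17 to 3.12, limma p = 0.0757, adjusted p = 0.9998, exact permutation p = 0.0346). The B cell markers lay higher for 7 of 8, with list means of 5.05 to 6.83 in obese and 4.88 to 5.70 in control tumours, and their part in the Cxcl13 difference was not tested. Cxcl12, the stromal ligand of Cxcr4, had 9.13, 9.13, 10.07, 10.18 and 10.60 in obese tumours, against 8.80 to 9.36 around a median of 9.17 in control tumours. Of the obese tumours 3 lay above every control and the other 2 within the range of the controls. The difference was 0.72 ± 0.41 log2 units (limma p = 0.095, exact permutation p = 0.0693), and the 5 fibroblast markers lay higher for 5 of 5 (list means 11.75 to 12.86 in obese and 10.80 to 12.79 in control tumours).

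Cxcr3, Cxcl11 and Ccl1 gave the smallest p among those lower in obese tumours. Cxcr3, the receptor for Cxcl10 and Cxcl11, was at 4.56, 4.79, 4.86, 4.91 and 4.98 in obese tumours, against 4.81 to 5.39 around a median of 5.18 in control tumours. All but 1 control, Mouse_32, exceeded every obese tumour, within a span of under 1 log2 unit near the lower end of the scale. The difference was -0.33 ± 0.16 log2 units (95% interval -0.66 to 0.01, limma p = 0.054, adjusted p = 0.9998, exact permutation p = 0.026). T cell markers lay higher in obese tumours for 9 of 10, 1 of them at an unadjusted p under 0.05, and NK cell markers for 2 of 6. The part of these cells in the Cxcr3 difference was not tested. Cxcl11 had 5.41, 5.47, 6.20, 6.96 and 8.47 in obese tumours, against 5.50 to 8.67 around a median of 7.03 in control tumours, and differed by -0.64 ± 0.73 log2 units (limma p = 0.391, exact permutation p = 0.411). Ccl1, a ligand of Ccr8, had 4.14, 4.39, 4.41, 4.84 and 5.08 in obese tumours, against 4.16 to 5.98 around a median of 4.77 in control tumours, and differed by -0.25 ± 0.25 log2 units (limma p = 0.323, exact permutation p = 0.519). For Cxcl11 and Ccl1 the obese values lay within or just below the range of the controls.

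By role, the ELR-type ligands lay higher in obese tumours for 5 of 5, or 4 of 5 without obese Mouse_113, with a median difference of 1.10 log2 units (0.76 at the lowest with single mice left out), and 0 of 5 had an unadjusted p under 0.05. Cxcl1 averaged 8.43 ± 1.46 with obesity and 7.34 ± 1.12 in controls, Cxcl2 11.95 ± 0.67 and 10.23 ± 2.60, and Cxcl5 11.60 ± 0.92 and 10.12 ± 2.36 (SD, 5 obese and 6 control tumours). The differences were 1.10 ± 0.70, 1.73 ± 1.12 and 1.48 ± 0.98 log2 units, and for Cxcl3 and for Cxcl15, described in mouse lung epithelium, 0.91 ± 0.83 and 0.62 ± 0.44. Single tumours moved them: without control Mouse_20 Cxcl2 differed by 1.05 and Cxcl5 by 0.76, and without obese Mouse_96 Cxcl1 differed by 0.62. Cxcl15 stood at 8.22 in obese Mouse_113 and at 4.44 to 5.24 in the other obese tumours, and without Mouse_113 its difference was -0.03. Control Mouse_20 and Mouse_26 held the 2 lowest levels of Cxcl2 and Cxcl5 of all 22 tumours, 6.83 and 7.68 for Cxcl2 and 6.53 and 8.39 for Cxcl5, and the SD of both genes was larger in control than in obese tumours. Neutrophil markers lay higher for 10 of 11, 1 of them at an unadjusted p under 0.05, with a median difference of 0.66 and list means of 7.69 to 8.77 in obese and 6.23 to 8.24 in control tumours; the part of neutrophil content in the ligand differences was not tested. Inflammatory CC ligands (Ccl3, Ccl4, Ccl5, Ccl6, Ccl7, Ccl8, Ccl9, Ccl11, Ccl12, Ccl24 and Ccl26) lay higher for 10 of 11, or 7 of 11 without control Mouse_26, with a median of 0.28 (0.05 to 0.41 with single mice left out) and Ccl3 at 1.22 ± 1.14, Ccl9 at 0.72 ± 0.51 and Ccl6 at 0.35 ± 0.49. Without control Mouse_26 Ccl9 differed by 0.39 and Ccl6 by -0.04, and the difference of Ccl3 ran from 0.61 to 1.85 with single mice left out. Macrophage and monocyte markers lay higher for 10 of 10, 1 of them at an unadjusted p under 0.05, with a median difference of 0.40. Their part in the CC ligand differences was not tested. Homeostatic CXC ligands (Cxcl12, Cxcl13, Cxcl14, Cxcl16 and Cxcl17) lay higher for 5 of 5 (4 to 5 with single mice left out), median 0.30, and CC receptors for 7 of 9 (4 to 9), median 0.15. Cxcl10 and Cxcl11 lay lower for 2 of 2 (1 to 2), as did 3 of 4 (2 to 4) ligands of lymphoid and dendritic cells, Ccl1, Ccl17, Ccl19 and Ccl22, with a median of -0.13.

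**Figure D4:**
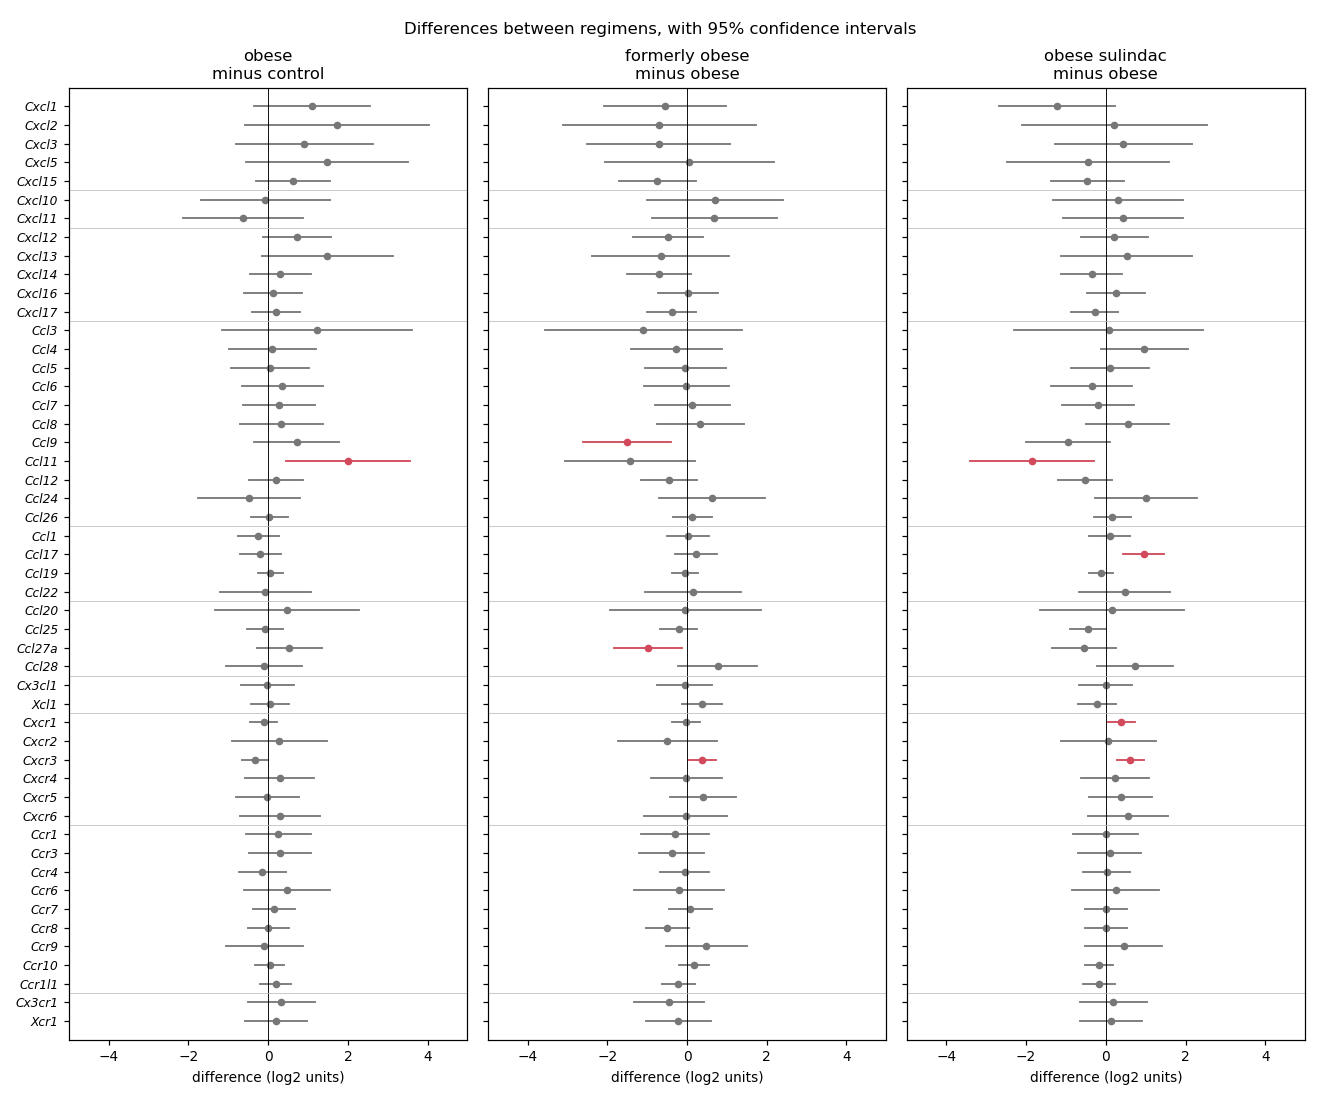
Difference in log2 units between group means for the 50 members in the 3 comparisons, with 95% confidence intervals from limma, ordered by role between the grey lines. Red marks an unadjusted p under 0.05: Ccl11 on the left, Ccl9, Ccl27a and Cxcr3 in the middle, and Ccl11, Ccl17, Cxcr3 and Cxcr1 on the right.

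Tumours of formerly obese mice were set against those of obese mice to ask what followed the change of diet. Limma called 0 members changed (smallest adjusted p = 0.866) and 0 of all probe sets, with 1263 at an unadjusted p under 0.05. Of the members 18 lay higher and 32 lower in formerly obese tumours, with a median difference of -0.05 log2 units against 0.00 over all probe sets. With single mice left out the count higher ran from 14 to 25, and in 42 of 50 members some mouse moved the difference by over 1.5 times or turned its sign (19 turned). At an unadjusted p under 0.05, 1 member was higher, against 2.77% of all probe sets, and 2 were lower, against 2.91%, which is again near the background. This comparison uses the same 5 obese arrays as the first, so the 2 sets of differences are not independent.

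Ccl9, a monocyte and myeloid attractant that acts through Ccr1 in the mouse, had 8.42, 9.15, 10.37, 10.72 and 10.85 in formerly obese tumours, against 10.73, 10.81, 11.23, 11.80 and 12.45 in obese tumours. Formerly obese Mouse_140 alone reached the range of the obese tumours. Formerly obese tumours averaged 9.90 ± 1.07 and obese tumours 11.40 ± 0.72 (SD, n = 5 each), and the means differed by -1.50 ± 0.53 log2 units (95% interval -2.61 to -0.39, limma p = 0.0103, adjusted p = 0.866, exact permutation p = 0.0318). It lay between -1.74 and -1.13 with single mice left out. Macrophage and monocyte markers lay lower for 10 of 10 in formerly obese tumours, with list means of 9.61 to 11.11 in formerly obese and 10.15 to 10.86 in obese tumours, and their part in the Ccl9 difference was not tested. Ccl6, its neighbour and close relative, differed by -0.02 ± 0.51.

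Ccl27a, a ligand of Ccr10 made by epithelia, stood at 6.44, 6.46, 7.22, 8.03 and 8.12 in formerly obese tumours, against 7.95, 8.14, 8.22, 8.38 and 8.49 in obese tumours. Mouse_152, Mouse_134 and Mouse_150 lay below all obese tumours and the other 2 within their range. The difference was -0.98 ± 0.41 log2 units (95% interval -1.83 to -0.13, limma p = 0.0254, adjusted p = 0.866, exact permutation p = 0.0318), and its unadjusted p was above 0.05 without obese Mouse_101 (-0.92), formerly obese Mouse_134 (-0.78) or formerly obese Mouse_152 (-0.78). Colon epithelium markers lay higher in formerly obese tumours for 7 of 8, with a median difference of 0.26. The part of epithelial content in the Ccl27a difference was not tested. Ccr8 was at 4.60, 4.88, 5.07, 5.08 and 5.63 in formerly obese tumours, against 5.09, 5.42, 5.50, 5.81 and 5.91 in obese tumours, with all but Mouse_140 below every obese tumour. It differed by -0.49 ± 0.26 log2 units (limma p = 0.0716, exact permutation p = 0.0714). T cell markers lay lower for 9 of 10, 1 of them at an unadjusted p under 0.05, and the list means were 6.11 to 7.50 in formerly obese and 5.89 to 7.55 in obese tumours.

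Cxcr3 was the member higher at the unadjusted level, with 4.73, 5.03, 5.24, 5.42 and 5.58 in formerly obese tumours, against 4.56, 4.79, 4.86, 4.91 and 4.98 in obese tumours. Every formerly obese tumour but Mouse_146 lay above the obese range. Its difference was 0.38 ± 0.17 log2 units (95% interval 0.03 to 0.73, limma p = 0.0344, adjusted p = 0.866, exact permutation p = 0.0714), and the unadjusted p was above 0.05 with obese Mouse_107 or Mouse_113 or formerly obese Mouse_134, Mouse_140 or Mouse_152 left out, when the difference lay between 0.28 and 0.37. Xcl1, which activated T and NK cells release for Xcr1 on dendritic cells, had 4.80, 5.02, 5.05, 5.07 and 6.13 in formerly obese tumours, against 4.57, 4.73, 4.75, 4.93 and 5.18 in obese tumours. Mouse_152 stood apart, and without it the difference of 0.38 ± 0.24 log2 units (limma p = 0.124, exact permutation p = 0.135) was 0.15. Ccl28, a mucosal ligand of Ccr10, had 8.17, 8.67, 9.11, 9.29 and 9.42 in formerly obese tumours, against 7.19, 7.64, 7.90, 8.24 and 9.85 in obese tumours. Obese Mouse_107 lay above all formerly obese tumours, and without it the difference of 0.77 ± 0.48 log2 units (limma p = 0.125, exact permutation p = 0.182) was 1.19.

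The ELR-type ligands lay lower in formerly obese tumours for 4 of 5 (4 to 5 with single mice left out), median -0.69, with Cxcl1 at -0.55 ± 0.73, Cxcl2 at -0.69 ± 1.17 and Cxcl5 at 0.06 ± 1.02. Without obese Mouse_96 Cxcl1 differed by -0.07, and without obese Mouse_113 Cxcl15 differed by -0.09, against -0.74 with all tumours. Neutrophil markers lay lower for 10 of 11, 2 of them at an unadjusted p under 0.05, median -0.96, with list means of 6.88 to 8.05 in formerly obese and 7.69 to 8.77 in obese tumours, and their part in the ligand differences was not tested. Homeostatic CXC ligands lay lower for 4 of 5 (4 to 5), median -0.48, with Cxcl14 at -0.71 ± 0.38 and Cxcl12 at -0.48 ± 0.43, and fibroblast markers for 5 of 5, 2 of them at an unadjusted p under 0.05 (list means 10.62 to 12.77 in formerly obese and 11.75 to 12.86 in obese tumours). Of the receptors, 6 of 9 CC receptors (4 to 7 with single mice left out), 4 of 6 CXC receptors (1 to 5) and 2 of 2 for Cx3cr1 and Xcr1 (1 to 2) lay lower. Cxcl10 and Cxcl11 lay higher, by 0.71 ± 0.82 and 0.69 ± 0.76 log2 units, and by 1.28 and 1.18 without obese Mouse_109.

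Tumours of sulindac-treated obese mice were set against those of untreated obese mice. Ccl17 and Cxcr3 lay higher and Ccl11 lower here, and all 3 were named for their small p in this comparison. How many of all probe sets separate these tumours as well was not counted. Limma called 0 members changed (smallest adjusted p = 0.567) and 0 of all probe sets, with 1454 at an unadjusted p under 0.05. Of the members 33 lay higher and 17 lower in obese sulindac tumours, median difference 0.11 log2 units against 0.01 over all probe sets. With single mice left out the count higher ran from 21 to 34, and in 44 of 50 members some mouse moved the difference by over 1.5 times or turned its sign (23 turned). At an unadjusted p under 0.05, 3 members were higher, against 3.07% of all probe sets, and 1 was lower, against 3.48%. The 5 obese arrays are shared with both comparisons above.

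Ccl17, a ligand of Ccr4 that dendritic cells and macrophages make, had 7.78 to 9.21 around a median of 8.29 in obese sulindac tumours, against 6.78, 7.25, 7.45, 7.73 and 7.83 in obese tumours. All but the obese sulindac tumour of Mouse_X lay above every obese tumour. Obese sulindac tumours averaged 8.36 ± 0.49 and obese tumours 7.41 ± 0.42 (SD, n = 6 and 5), and the means differed by 0.95 ± 0.25 log2 units (95% interval 0.44 to 1.46, limma p = 0.000867, adjusted p = 0.567, exact permutation p = 0.00866). Leaving out single mice gave 0.78 to 1.07, with unadjusted p from 0.000323 to 0.00451. Its partner Ccl22 differed by 0.47 ± 0.55 (0.07 without obese sulindac Mouse_124) and the receptor gene Ccr4 by 0.03 ± 0.28. Dendritic cell markers lay higher for 5 of 7, 2 of them at an unadjusted p under 0.05, with list means of 5.08 to 5.44 in obese sulindac and 4.76 to 5.47 in obese tumours, and their part in the Ccl17 difference was not tested. Xcr1, itself a member, is 1 of these markers and lay higher.

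Cxcr3 had 5.04 to 5.81 around a median of 5.45 in obese sulindac tumours, against 4.56, 4.79, 4.86, 4.91 and 4.98 in obese tumours. All obese sulindac tumours lay above all obese tumours. Obese sulindac tumours averaged 5.43 ± 0.27 and obese tumours 4.82 ± 0.16 (SD, n = 6 and 5), and the means differed by 0.61 ± 0.16 log2 units (95% interval 0.28 to 0.95, limma p = 0.00103, adjusted p = 0.567, exact permutation p = 0.00433, the smallest that the 462 regroupings can give), and 0.54 to 0.69 with single mice left out. T cell markers lay higher for 5 of 10, with list means of 6.26 to 7.82 in obese sulindac and 5.89 to 7.55 in obese tumours, and NK cell markers for 4 of 6. Cxcl10 and Cxcl11, its ligands, differed by 0.31 ± 0.78 and 0.43 ± 0.73 log2 units. Cxcr1, a receptor of neutrophils, had 4.38 to 5.42 around a median of 4.85 in obese sulindac tumours, against 4.31, 4.40, 4.55, 4.61 and 4.64 in obese tumours, all near the lower end of the scale. Of the obese sulindac tumours 4 lay above every obese tumour. The difference was 0.39 ± 0.16 log2 units (95% interval 0.05 to 0.73, limma p = 0.0284, adjusted p = 0.721, exact permutation p = 0.0606), and its unadjusted p was above 0.05 without obese Mouse_109 (0.34) or Mouse_113 (0.36) or obese sulindac Mouse_129 (0.28) or Mouse_131 (0.32).

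Ccl11 had 7.26 to 10.26 around a median of 8.53 in obese sulindac tumours, against 9.49, 10.35, 10.65, 10.75 and 10.92 in obese tumours. All obese sulindac tumours but Mouse_131 lay below every obese tumour. The difference was -1.86 ± 0.75 log2 units (95% interval -3.41 to -0.31, limma p = 0.0213, adjusted p = 0.703, exact permutation p = 0.00866), and -1.60 without obese sulindac Mouse_129 (unadjusted p = 0.0523). Ccl25 stood at 8.26 to 8.84 around a median of 8.66 in obese sulindac tumours, against 8.77, 8.85, 9.02, 9.10 and 9.43 in obese tumours, so that 5 of 6 obese sulindac tumours lay below the obese range. It differed by -0.44 ± 0.22 log2 units (95% interval -0.89 to 0.01, limma p = 0.0572, exact permutation p = 0.00866). Ccl9 stood at 9.51 to 11.61 around a median of 10.37 in obese sulindac tumours, against 10.73, 10.81, 11.23, 11.80 and 12.45 in obese tumours, with 4 of 6 below the obese range, and differed by -0.95 ± 0.51 log2 units (limma p = 0.077, exact permutation p = 0.0693). Colon epithelium markers lay higher for 3 of 8 and macrophage and monocyte markers for 5 of 10 in this comparison.

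**Figure D5:**
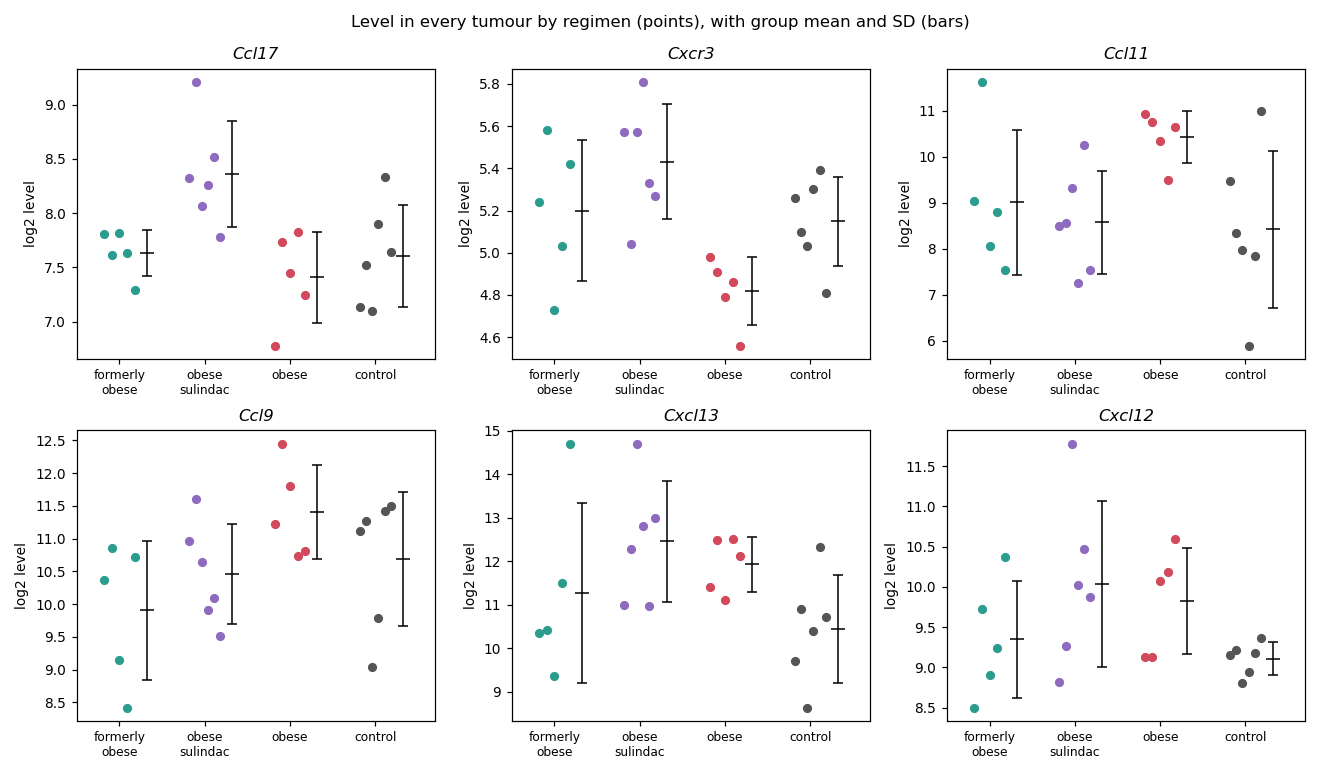
Log2 level of 6 members in every tumour (points) by group, with the group mean and SD (black bars beside the points; n = 5, 6, 5 and 6 from left to right). Cxcr3 is higher in all obese sulindac tumours than in any obese tumour, Ccl17 in 5 of 6, and Ccl11 is lower in 5 of 6. Ccl9, Cxcl13 and Cxcl12 overlap more between groups. The 6 members were picked for a small p in these data, and the share of all probe sets that separate as well was not counted.

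The CXC receptors lay higher in obese sulindac tumours for 6 of 6 (5 to 6 with single mice left out), with a median difference of 0.38 log2 units. At an unadjusted p under 0.05 were 2 of them, Cxcr3 and Cxcr1, both already named for their small p, against 3.07% of all probe sets. Besides Cxcr3 and Cxcr1, Cxcr6 differed by 0.56 ± 0.48, Cxcr5 by 0.37 ± 0.38, Cxcr4 by 0.23 ± 0.41 and Cxcr2 by 0.07 ± 0.57. Cxcr6 differed by 0.21 without obese sulindac Mouse_125, and the signs of Cxcr4 and Cxcr2 turned with single mice left out. The 9 CC receptors had a median difference of 0.01, with 7 higher, or 1 higher without obese Mouse_96, among them Ccr9 at 0.44 ± 0.47 and Ccr6 at 0.24 ± 0.52. The ELR-type ligands gave 2 higher and 3 lower, and 0 to 3 higher with single mice left out, with Cxcl1 at -1.22 ± 0.70, Cxcl3 at 0.44 ± 0.83 and Cxcl2 at 0.21 ± 1.12. Cxcl15 differed by -0.47, and by 0.19 without obese Mouse_113, and Cxcl1 by -0.74 without obese Mouse_96. For Cxcl2 the obese sulindac tumours reached from 8.25 in Mouse_X to 15.32 in Mouse_114 and enclosed all obese tumours, which lay between 11.23 and 12.83. Neutrophil markers lay lower for 9 of 11, 1 of them at an unadjusted p under 0.05, with list means of 6.29 to 9.46 in obese sulindac and 7.69 to 8.77 in obese tumours. Of the inflammatory CC ligands 6 of 11 lay higher (5 to 6), with Ccl4 at 0.96 ± 0.52 and Ccl24 at 1.01 ± 0.62. Without obese sulindac Mouse_114 Ccl4 differed by 0.52, and without obese sulindac Mouse_131 Ccl24 differed by 0.47. Among the epithelial ligands Ccl28 differed by 0.73 ± 0.46, Ccl20 by 0.16 ± 0.87 and Ccl27a by -0.55 ± 0.39. Without obese Mouse_107 Ccl28 differed by 1.15, without obese sulindac Mouse_X Ccl27a differed by -0.87, and without obese sulindac Mouse_129 Ccl20 differed by -0.35. The fractalkine gene Cx3cl1 and Xcl1 differed by -0.01 ± 0.32 and -0.21 ± 0.23.

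Over the 4 groups together, limma's F test gave an unadjusted p under 0.05 for 2 members, Ccl17 and Cxcr3, which is 4% of the members against 6% of all 22203 probe sets, and called 0 members and 0 probe sets at an adjusted p under 0.05 (smallest adjusted p = 0.755). Ccl11 came next, with an adjusted p of 0.829 in limma. Group means of Ccl17 were 7.63 ± 0.21 in formerly obese, 8.36 ± 0.49 in obese sulindac, 7.41 ± 0.42 in obese and 7.61 ± 0.47 in control tumours (SD). The obese sulindac mean stood above the other 3, which lay within 0.22 log2 units of each other. For Cxcr3 the means were 5.20 ± 0.33, 5.43 ± 0.27, 4.82 ± 0.16 and 5.15 ± 0.21 in the same order, with obese tumours below the other 3 groups. Formerly obese tumours had Ccl17 levels of 7.29, 7.61, 7.63, 7.81 and 7.82, and control tumours 7.10 to 8.33 around a median of 7.58. For Ccl11 the formerly obese tumours had 7.53, 8.05, 8.79, 9.03 and 11.63, with Mouse_140 above every other tumour of the series, and a difference of -1.43 ± 0.78 against obese tumours.

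Of the pairs of groups that are not centred on obese tumours, formerly obese against control tumours gave 0 members at an unadjusted p under 0.05, against 5.54% of all probe sets, and 31 of 50 lay higher. Obese sulindac against control tumours gave 5 members, against 6.63% of all probe sets, with 35 of 50 higher and a median difference of 0.27 log2 units. These were Ccl17 at 0.76 ± 0.23, Cxcl13 at 2.0 ± 0.75, Cxcl12 at 0.93 ± 0.39, Ccl4 at 1.07 ± 0.50 and, lower, Ccl25 at -0.51 ± 0.21. Without obese sulindac Mouse_125 Cxcl12 differed by 0.58, and without obese sulindac Mouse_114 Ccl4 differed by 0.63. Formerly obese against obese sulindac tumours gave 4 members, against 6.62% of all probe sets: Xcl1 at 0.59 ± 0.23 and, lower, Ccl17 at -0.73 ± 0.25, Ccl4 at -1.23 ± 0.52 and Cxcr1 at -0.40 ± 0.16. Xcl1 differed by 0.36 without formerly obese Mouse_152, and Ccl4 by -0.79 without obese sulindac Mouse_114. All had adjusted p of 0.613 or more in limma.

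The remaining members are given by role with their mean over the 22 tumours, SD and range. Among ligands of myeloid cells, Ccl7 had 7.60 ± 0.73 (range 6.34 to 9.40), Ccl8 8.73 ± 0.90 (range 6.86 to 10.36), Ccl12 7.63 ± 0.56 (range 6.50 to 8.67), Ccl24 5.34 ± 1.08 (range 4.12 to 8.51) and Ccl5, which also draws T cells, 5.57 ± 0.78 (range 4.42 to 7.10). Ccl6 had 9.96 ± 0.82 (range 7.86 to 11.38), and Ccl8 acts on Ccr8 in the mouse. Epithelial ligands were Ccl20, which draws Ccr6-bearing cells, at 6.76 ± 1.47 (range 5.16 to 9.84), Ccl25 at 8.89 ± 0.40 (range 8.22 to 9.95), Ccl28 at 8.56 ± 0.84 (range 7.19 to 10.41) and Cx3cl1 at 7.79 ± 0.52 (range 6.70 to 8.80). Cxcl17, a mucosal chemokine, had 5.02 ± 0.47 (range 4.55 to 6.59) and Cxcl15 5.15 ± 0.78 (range 4.44 to 8.22), the highest value being in obese Mouse_113. Cxcl10 had 7.70 ± 1.33 (range 5.45 to 10.43), Cxcl1 7.68 ± 1.26 (range 5.31 to 10.37) and Cxcl5 11.09 ± 1.74 (range 6.53 to 13.28).

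Of the receptors, Cxcr4, carried by most leukocytes and by stromal and tumour cells, had 9.10 ± 0.70 (range 7.90 to 10.78), and Ccr1, the receptor of Ccl3 and Ccl9 on myeloid cells, 8.16 ± 0.65 (range 6.56 to 9.12). Ccr7, which leads dendritic cells and naive T cells to lymph nodes, had 7.52 ± 0.41 (range 6.60 to 8.42). Cxcr2 had 7.03 ± 0.97 (range 5.42 to 8.76), Cx3cr1 6.82 ± 0.71 (range 5.40 to 8.75) and Cxcr6 6.28 ± 0.86 (range 4.84 to 8.52). Xcr1, a receptor of cross-presenting dendritic cells, had 5.81 ± 0.63 (range 4.31 to 7.56), Ccr3 5.59 ± 0.64 (range 4.80 to 7.29), Ccr9 5.37 ± 0.80 (range 4.39 to 7.23), Ccr6 5.32 ± 0.90 (range 4.17 to 7.64), Cxcr5 4.91 ± 0.65 (range 4.17 to 7.16) and Ccr4 4.73 ± 0.46 (range 4.04 to 5.63). Ccr6 had 7.64 and Cxcr5 7.16 in formerly obese Mouse_152, each the highest of the 22 tumours, and that tumour also had the highest B cell marker mean.

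Other genes of the chemokine pathway were taken from lists chosen by function, and limma called 0 of them at an adjusted p under 0.05 in any of the 3 main comparisons. Of all probe sets, 4.03% had an unadjusted p under 0.05 in obese against control tumours. The share was 5.69% in formerly obese against obese tumours and 6.55% in obese sulindac against obese tumours. These shares also stand beside the counts of markers given above. Of 7 atypical receptors and platelet chemokines, 1 had an unadjusted p under 0.05 in obese against control tumours, Ackr2, which removes CC chemokines, at 0.41 ± 0.17 log2 units (means 4.71 and 4.30). Pf4, a platelet chemokine, was lower at that level both in formerly obese against obese tumours, at -0.73 ± 0.33, and in obese sulindac against obese tumours, at -0.76 ± 0.32 (means 7.05 in formerly obese, 7.03 in obese sulindac and 7.78 in obese tumours). Of 12 genes of receptor signalling, Grk6, a kinase that desensitises chemokine receptors, lay at -0.52 ± 0.18 in obese against control tumours, 0.59 ± 0.19 in formerly obese against obese tumours and 0.81 ± 0.18 in obese sulindac against obese tumours (limma adjusted p = 0.9998, 0.866 and 0.533), with means of 9.04 in formerly obese, 9.26 in obese sulindac, 8.45 in obese and 8.97 in control tumours. No probe set had a smaller adjusted p than the last of these in that comparison. The Benjamini-Hochberg adjustment can give the same value to several probe sets, so this does not place Grk6 first. All 3 differences share the 5 obese arrays. Pik3cg, the kinase that G protein subunits activate downstream of these receptors, lay at 0.92 ± 0.42 in obese against control tumours. Signalling genes lay higher for 10 of 12 in obese against control tumours, 4 of 12 in formerly obese against obese and 10 of 12 in obese sulindac against obese tumours. Of 15 cytokines and feedback genes that induce chemokines or are induced with them, 13, 6 and 9 lay higher in the same 3 comparisons, and 1 had an unadjusted p under 0.05, Il6 in obese sulindac against obese tumours at -1.21 ± 0.58 (limma adjusted p = 0.761).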

How the data were processed

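Tumour RNA was hybridised to 1 Clariom S array per mouse, per the labels' protocols. The deposited values were made by the authors with Transcriptome Analysis Console 4.0, per the submitters' processing notes, and are read as log2 levels from their range of 3.34 to 19.49. Neither the base of the logarithm nor the background correction and normalization is given in the sources used here. Array medians lay close together, from 6.67 to 6.83, which does not show how the arrays had been scaled. Probe sets were named from the platform annotation, with 19572 of 22203 carrying 1 symbol and 2631 unnamed. A linear model with a mean per group was fitted to all 22203 probe sets and 22 arrays with limma 3.58.1 in R 4.3.3, with two-sided moderated tests and Benjamini-Hochberg adjustment over all probe sets. Members described tumour by tumour were also given a two-sided exact permutation test of the difference in means, unadjusted. Pairs of genes were tested with 100000 permutations.

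Members described in full were the 3 with the smallest unadjusted p in each direction of each main comparison and the 3 with the smallest p in the F test. Their overlap between groups is described only, since the share of all probe sets that separate as well was not counted. The members, lists, pairs and motifs were chosen with earlier results of these data known. The fit and the correlation step were tested on simulated data with known answers. Alternatives were quantile normalization, array weights, a trend and robust prior, a filter on dim probe sets, fits of 2 groups alone and leaving out each mouse. The labels give no batch.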

Additional observations from a re-analysis of the deposited data

Results flagged for a closer look

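Among the 14 members described tumour by tumour, 56 sets of values from 1 group each were examined for a sample far from the others, and 2 met Dixon's 95% criterion, which chance meets in about 1 in 20 sets. Ccl28 stood at 10.41 in control Mouse_20, while the other control tumours lay between 7.33 and 8.22. Xcl1 stood at 6.13 in formerly obese Mouse_152, while the other formerly obese tumours lay between 4.80 and 5.07. The cause of either value was not tested.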

How the results depend on the processing

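No difference or correlation past its threshold changed sign under the alternatives run; the weak correlations of Ccl24 with Ccr3 and of Ccl19 with Ccr7 did, at -0.30 and -0.04 without 2 tumours. In obese against control tumours 1 member had an unadjusted p under 0.05, against 4 with the 2 groups fitted alone and 1 to 2 with single mice left out (2 without control Mouse_26, Mouse_30 or Mouse_32 or obese Mouse_96). In formerly obese against obese tumours there were 3, against 5 with the 2 groups fitted alone and 1 to 5 with single mice left out (5 without obese Mouse_96 or formerly obese Mouse_140, 1 without formerly obese Mouse_134). In obese sulindac against obese tumours there were 4, against 2 to 7 with single mice left out (7 without obese sulindac Mouse_124 or Mouse_125, 2 without obese sulindac Mouse_129), and over all probe sets the count at an adjusted p under 0.05 was 0 to 1, the 1 arising without obese Mouse_96. The F test over 4 groups gave 2 members, against 4 with array weights and 2 to 5 with single mice left out (5 without formerly obese Mouse_152 or obese sulindac Mouse_114 or Mouse_X, 4 without formerly obese Mouse_140, obese sulindac Mouse_124 or Mouse_131 or control Mouse_30). Leaving out each mouse for every member's difference and for the counts of each role was chosen after seeing the data. The count of pairs of genes past the threshold was 22, against 17 with group means removed and 15 without 2 tumours. The filter on dim probe sets, at a mean of 4.89, left 42 members. Cxcr3 in formerly obese against obese tumours had a difference of 0.33 and an unadjusted p above 0.05 after quantile normalization and with array weights. The alternative of another probe set per gene gave no value, since each member had 1. The causes of these changes were not tested. No paired analysis was possible because the groups share no replicate numbers. With 5 or 6 arrays per group and no detection calls, whether genes near the lower end of the scale, such as Cxcr1, were above background is not known.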
